A study of Mus musculus with 4 samples.

Results

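The subject is the AP-1 family of transcription factors in the prelimbic cortex of adult mice: Fos, Fosb, Fosl1, Fosl2, Jun, Junb, Jund, Maff, Atf3 and Crem. All probe sets that the array annotation assigns to 1 gene symbol, that symbol being 1 of these 10, were taken, and each was kept separate. This gave 17 of the 34945 probe sets tested, or 10 of 18193 genes. Crem had 4 probe sets, Fosl1, Fosl2, Jun and Jund had 2 each, and the other 5 genes had 1 each. No probe set with several symbols held a member. The 4 arrays came from male mice on postnatal day 90: 2 arrays from mice exposed to fluoxetine, a selective serotonin reuptake inhibitor, before birth, and 2 from untreated controls. The RNA came from tissue punches of the medial prefrontal cortex, which holds many cell types, so that fewer cells of a type and less RNA per cell cannot be told apart. The sources used here do not state the strain, the dose and days of exposure, the litters, or the number of mice behind an array. The submitters describe the arrays of a group as biological duplicates.

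AP-1 is a dimer of basic leucine zipper proteins that binds DNA at short palindromic sites. Jun proteins pair with each other or with Fos proteins, while Fos proteins need a Jun partner. In neurons Fos, Fosb and Junb are immediate early genes: synaptic activity and calcium switch on their transcription within minutes through serum response factor and CREB, and the RNA is short-lived. Maff is a small Maf protein without an activation domain, Atf3 a stress-induced bZIP factor, and Crem a relative of CREB whose internal promoter makes the repressor ICER.

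Members are described by the deposited log2 intensity of each probe set. A difference is the fluoxetine mean minus the untreated mean on that log2 scale, with the moderated SE from a limma fit over all 34945 probe sets. The arrays had medians of 6.44 to 6.50 and correlated at 0.996 to 0.997 both within and between groups. In that fit 1 probe set had an adjusted p below 0.05 (Homer1, named after its value was seen), which is 0.00286% of those tested, and no AP-1 probe set did. The lowest adjusted p among the members was 0.331. An exact two-sided permutation test of 2 arrays against 2 cannot give a p below 0.333. An unadjusted p below 0.05 is therefore used only to describe. It was reached by 6.4% of all probe sets in the higher direction with fluoxetine and by 3.04% in the lower direction. Among probe sets above the median level of 7.12 the shares were 10% and 1.68%, so the brighter part of the array leaned upward in this fit. The poly-A control RNAs, which are spiked into the sample before labelling, also read higher on average with fluoxetine in 24 of 24 probe sets (median difference 0.24), and 17 of these separated the groups. The hybridisation controls, added later, had a median difference of 0.05. The part of this shift in the member differences was not tested.

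The tissue label was checked against cell type markers. Those of cortical excitatory neurons were bright, with means over 16 probe sets of 9.69 and 9.62 on the fluoxetine arrays and 9.53 and 9.51 on the untreated ones. Neurod6, a transcription factor of these neurons, read between 10.89 and 11.29. Markers of striatal medium spiny neurons, which lie beside the prefrontal cortex, had means over 10 probe sets of 7.13 and 7.37 with fluoxetine and 7.32 and 8.28 without. Untreated replicate 2 thus stood apart for striatal transcripts. Differences without it are given below for each member it moves by over 1.5 times. Endothelial and mural markers (13 probe sets) had means of 8.58 and 8.57 with fluoxetine against 8.35 and 8.50, and astrocyte markers (26 probe sets) 9.02 and 9.07 against 8.94 and 8.96. Oligodendrocyte means ran from 10.94 to 11.10, with the highest on untreated replicate 2, microglial means from 9.37 to 9.45 and meningeal fibroblast means from 5.98 to 6.08. The part of these other cell types in the member differences was not tested.

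In 6 members the fluoxetine arrays stood above the untreated ones in at least 1 probe set, and of these Crem is not shown here. As background to the values, the promoter letters are given for the other 5, and for Fos, which did not separate the groups. They are the 140 bases before the annotated transcription start, 5′ to 3′ on the gene's strand, from RefSeq on build GRCm38.p6. Capitals mark TGACG on either strand, the core of the cyclic AMP response element to which CREB and Crem proteins bind, and so include both overlapping copies in the full palindrome TGACGTCA. Of the 3 Maff starts only the second is shown, which holds TGACGTCA. Within 250 bases the first Maff start holds no TGACG and the third holds 1 copy. Start windows were used for 8 of the 10 genes, and none for Fosl1 or Crem. The search left out a chromosome, which need not account for both genes. The lack of a window does not show that either gene lacks an annotated start.
Fos (chr12:85473750-85473889, plus strand): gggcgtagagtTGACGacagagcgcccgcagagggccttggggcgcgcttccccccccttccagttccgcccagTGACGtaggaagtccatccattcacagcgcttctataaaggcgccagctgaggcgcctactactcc
Fosb (chr7:19310046-19310185, minus strand): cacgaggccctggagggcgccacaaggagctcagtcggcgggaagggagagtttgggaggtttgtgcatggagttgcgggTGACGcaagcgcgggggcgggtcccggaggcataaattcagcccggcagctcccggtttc
Fosl2 (chr5:32136332-32136471, plus strand): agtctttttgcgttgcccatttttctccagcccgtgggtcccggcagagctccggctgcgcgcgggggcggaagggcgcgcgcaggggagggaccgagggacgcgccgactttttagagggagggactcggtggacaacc
Junb (chr8:84978749-84978888, minus strand): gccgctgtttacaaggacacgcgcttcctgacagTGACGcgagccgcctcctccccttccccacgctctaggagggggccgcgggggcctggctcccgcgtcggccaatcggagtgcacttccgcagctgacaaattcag
Maff, second of 3 starts (chr15:79347380-79347519, plus strand): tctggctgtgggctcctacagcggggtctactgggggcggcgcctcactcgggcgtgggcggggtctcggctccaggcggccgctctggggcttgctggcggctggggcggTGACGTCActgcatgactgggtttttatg
Atf3 (chr1:191183334-191183473, minus strand): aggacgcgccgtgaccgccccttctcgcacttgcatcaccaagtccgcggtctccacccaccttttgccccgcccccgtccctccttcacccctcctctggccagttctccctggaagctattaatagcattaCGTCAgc

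Within 250 bases before the start, TGACG on either strand was found at Fos (bases -129 to -125 and -66 to -62), Fosb (-60 to -56), Junb (-106 to -102), Atf3 (-7 to -3) and 2 of the 3 Maff starts. It was not found at Fosl2, Jun or Jund. Of all 32851 start windows of that length in the table, 17.8% hold TGACG. The full TGACGTCA stood at the second Maff start (-29 to -22) and is in 1.55% of all windows. The AP-1 site itself, TGAGTCA on either strand, was in none of the windows of these 8 genes and in 4.46% of all windows. The CArG box bound by serum response factor was likewise in none of them and in 1.47% of all. A site farther upstream than the window, or with other letters than the exact pattern, would be missed. TATAAA stood at Fos (-33 to -28). These are matches of letters and describe the windows only.

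Across the family, in 7 of the 17 probe sets the fluoxetine arrays both exceeded the untreated ones, 1 had the opposite arrangement and 9 overlapped. Over all tested probe sets 19.9% had the first arrangement and 20% the second; above the median level these shares were 27.5% and 15%. At an unadjusted p below 0.05 in the limma fit, 4 of 17 were higher (Fosl2, Fosb, Crem and Atf3, 1 probe set each) and 0 lower, against the 6.4% and 3.04% given above. Among the cell type marker lists the higher share was 42.3% for astrocytes, 37.5% for cortical excitatory neurons and 30.8% for endothelial and mural cells. It was 20% for meningeal fibroblasts, 11.1% for microglia, 9.09% for oligodendrocytes and 0% for striatal medium spiny neurons. The median difference of the AP-1 probe sets was 0.07, beside -0.0065 over all probe sets. Of the 9 members above the median level, 3 were higher at that p and 5 had both fluoxetine arrays above, with a median of 0.10 beside 0.02 for all probe sets above that level. The other 8 lay at or below it, with 1 higher and 0 lower at that p and a median of 0.00050. At that level 2.76% of all probe sets were higher and 4.41% lower. Of these 8 members, 2 separated the groups in the higher direction and 1 in the lower, beside 12.3% and 25% of all probe sets at that level. These members were proposed with results of these arrays known, so the counts describe them and are not independent support. In 12 of 17 probe sets the difference was smaller than the larger distance between the 2 arrays of a group. That count was not made over all probe sets. Of the member intervals 13 of 17 held 0, beside 31644 of 34945 over all tested probe sets. Leaving out an array took the 4 higher probe sets to 1 without fluoxetine replicate 1, 2 without fluoxetine replicate 2 and 1 without untreated replicate 1. Fosl2 was among them in each case. Without untreated replicate 2 there were again 4, with the other bright Crem probe set in place of Atf3.

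**Figure D1:**
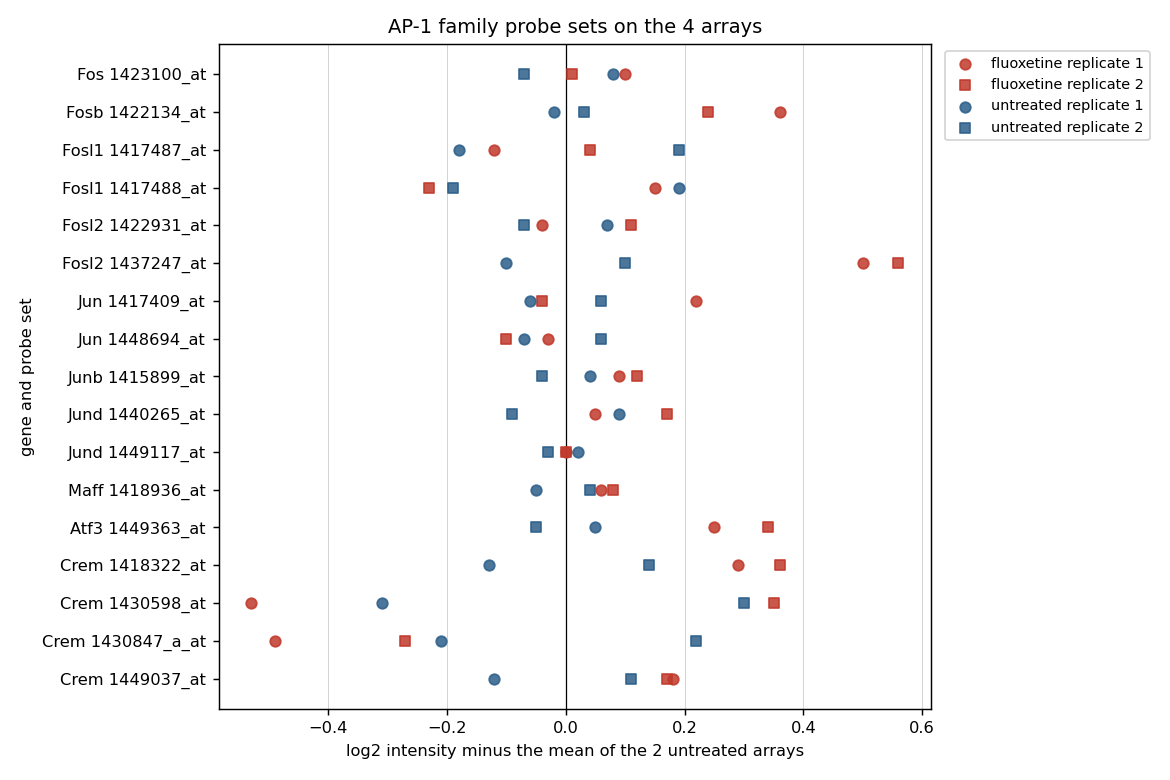
Each row is 1 AP-1 probe set and each point 1 array, as log2 intensity minus the mean of the 2 untreated arrays; red is fluoxetine, blue untreated, circles replicate 1 and squares replicate 2 (numbers pair nothing). Both red points lie right of both blue points in 7 rows, most clearly for Fosl2 1437247_at, and in reverse only for Crem 1430847_a_at.

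Among the Fos proteins, Fosl2 had the largest difference in the family. Fosl2 encodes Fra-2, a Fos relative without the strong activation domain of Fos. Its probe set 1437247_at read 9.30 and 9.36 on the fluoxetine arrays and 8.70 and 8.90 on the untreated ones. The groups did not overlap, the fluoxetine arrays being higher, and the nearest pair lay 0.40 apart, more than the distance between arrays of either group (0.06 and 0.20). The difference was 0.53 (SE 0.09, 95% interval 0.33 to 0.73, n = 2 and 2), or 1.44-fold, with a limma p of 0.000417 and an adjusted p of 0.331. It ran from 0.43 without untreated replicate 1 to 0.63 without untreated replicate 2, and over all alternatives its limma p ran from 0.000153 to 0.00623 with a positive sign throughout.

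The groups overlapped on the other Fosl2 probe set. Probe set 1422931_at read 6.65 and 6.80 with fluoxetine and 6.76 and 6.62 without. Its difference was 0.04 (SE 0.12, 95% interval -0.24 to 0.32). That difference was -0.03 without fluoxetine replicate 2 or untreated replicate 2, 0.12 without fluoxetine replicate 1 and 0.11 without untreated replicate 1. The probe set lay below the median level. The gap between the probe sets within an array, 1422931_at minus 1437247_at, was -2.65 and -2.56 with fluoxetine and -1.94 and -2.29 without, a difference of gaps of -0.49. The groups' gaps did not overlap, which in an exact permutation test of 2 against 2 gives the smallest possible p of 0.333. Gaps of the Jun pair and of some Crem pairs did not overlap either. The share of such pairs over all genes was not counted. The sources used here do not say which parts of the Fosl2 transcript the probe sets cover.

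Fosb, whose full-length and truncated proteins share 1 gene, followed. Its probe set 1422134_at read 7.86 and 7.74 with fluoxetine and 7.48 and 7.53 without. The fluoxetine arrays were both higher, with 0.20 between the nearest pair. The difference was 0.29 (SE 0.09, 95% interval 0.07 to 0.51), or 1.22-fold, with a limma p of 0.0158 and an adjusted p of 0.425. The limma p was 0.126 without fluoxetine replicate 1 and 0.0545 without untreated replicate 1. The probe set does not tell the full-length form from the truncated one, so far as the sources used here say.

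Fos, the usual marker of recent neuronal activity, did not separate the groups. Its probe set 1423100_at read 11.94 and 11.85 with fluoxetine and 11.92 and 11.77 without, and untreated replicate 1 lay between the fluoxetine arrays. The difference was 0.06 (SE 0.06), and the 95% interval of -0.09 to 0.20 bounds it. It was -0.02 without untreated replicate 2, 0.01 without fluoxetine replicate 1, 0.10 without fluoxetine replicate 2 and 0.13 without untreated replicate 1.

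Fosl1 encodes Fra-1 and was dim. Its probe set 1417487_at read 5.57 and 5.73 with fluoxetine and 5.51 and 5.88 without (difference -0.04, SE 0.17, and 0.02 after another quantile normalization). Probe set 1417488_at read 4.90 and 4.52 against 4.94 and 4.56 (difference -0.04, SE 0.20, and 0.03 after another quantile normalization). In both, arrays of the same group lay further apart than the group means. The probe sets also ordered the arrays of a group in opposite ways, with a gap between them of 0.56 to 1.32. Their intervals, -0.44 to 0.35 and -0.52 to 0.44, would not exclude differences of the size seen for Fosb. With an array left out the differences ran from -0.23 to 0.14 and from -0.23 to 0.15, with untreated replicate 2 left out giving the highest for 1417487_at and the lowest for 1417488_at, and untreated replicate 1 the reverse.

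The Jun proteins, without which Fos proteins cannot bind DNA, had differences between -0.06 and 0.11, and none reached an unadjusted p below 0.05. Jund, which is made in resting cells, read 11.73 and 11.73 with fluoxetine and 11.75 and 11.70 without on its bright probe set 1449117_at. Its difference was 0.0013 (SE 0.04, 95% interval -0.10 to 0.11), the narrowest interval in the family, and it was -0.04 after another quantile normalization and -0.02 without untreated replicate 2. The dim Jund probe set 1440265_at read 4.71 and 4.83 against 4.75 and 4.57, with a difference of 0.11 (SE 0.16) and overlapping groups. That difference was 0.0203 without untreated replicate 2, 0.0528 without fluoxetine replicate 2 and 0.20 without untreated replicate 1.

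Jun, the strongest activator of its subfamily, had differences of both signs. Its probe set 1417409_at read 10.20 and 9.94 with fluoxetine and 9.92 and 10.04 without, where only fluoxetine replicate 1 stood out. The difference of 0.09 (SE 0.09) was -0.04 without that array, 0.21 without fluoxetine replicate 2, 0.03 without untreated replicate 1 and 0.15 without untreated replicate 2. Probe set 1448694_at read 8.85 and 8.78 against 8.81 and 8.94 (difference -0.06, SE 0.08; 0.0018 without untreated replicate 2, -0.02 without fluoxetine replicate 2, -0.10 without fluoxetine replicate 1 and -0.12 without untreated replicate 1). The groups overlapped in both Jun probe sets. The gap between them within an array, 1417409_at minus 1448694_at, was 1.34 and 1.16 with fluoxetine and 1.11 and 1.10 without. These gaps did not overlap, with a difference of gaps of 0.15.

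Junb, which restrains Jun at many sites, was the member of this subfamily whose groups did not overlap. Its probe set 1415899_at read 9.45 and 9.48 with fluoxetine and 9.40 and 9.32 without. The fluoxetine arrays were both higher, by 0.05 at the nearest pair. The difference was 0.10 (SE 0.06, 95% interval -0.05 to 0.26), 1.07-fold, with a limma p of 0.152, 0.07 after another quantile normalization and 0.06 without untreated replicate 2.

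**Figure D2:**
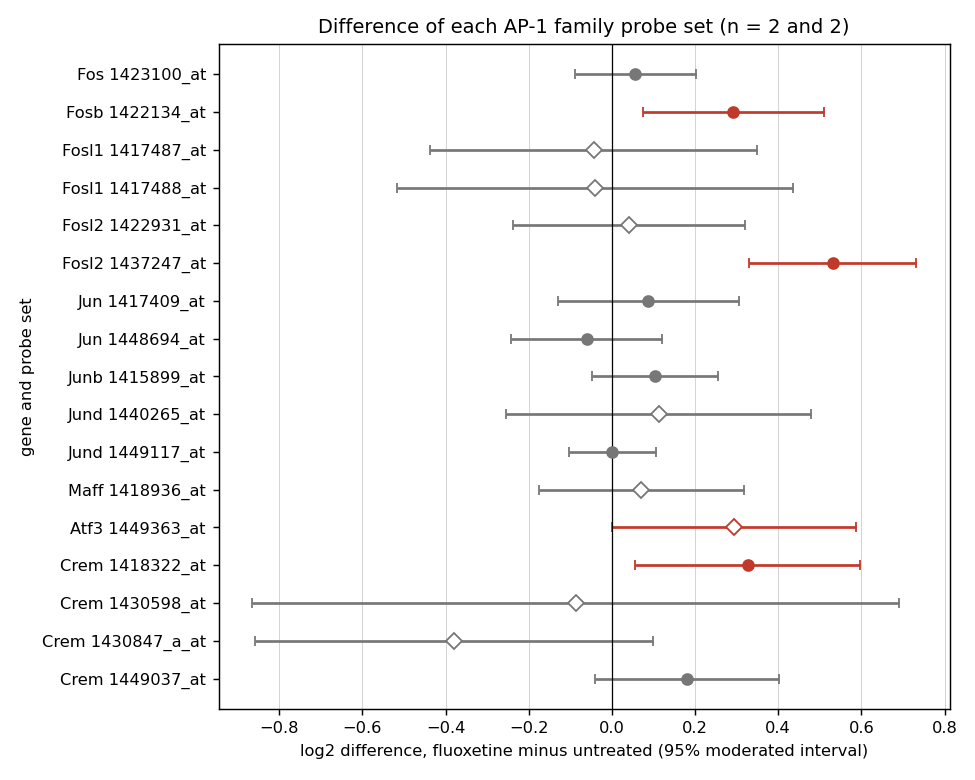
Each row is 1 AP-1 probe set; the marker is the log2 difference, fluoxetine minus untreated, and the bar its 95% moderated interval from the limma fit (n = 2 and 2). Red marks an unadjusted p below 0.05, filled circles lie above the median level of all probe sets and open diamonds at or below it; 4 intervals leave out 0, and that of Jund 1449117_at is the narrowest.

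Of the bZIP relatives, Atf3 and Crem had the larger differences. Atf3 is induced by stress and injury and often represses transcription as a homodimer. Its probe set 1449363_at read 6.20 and 6.29 with fluoxetine and 6.0 and 5.90 without. Both fluoxetine arrays were higher, with 0.19 between the nearest pair, and arrays of a group lay 0.09 and 0.10 apart. The difference was 0.29 (SE 0.12, 95% interval 0.0001 to 0.59), or 1.23-fold, with a limma p of 0.0499 and an adjusted p of 0.529. Leaving out any of the 4 arrays brought the limma p to between 0.0546 and 0.216, with differences of 0.24 to 0.35. The probe set lay below the median level, where 2.76% of all probe sets were higher at an unadjusted p below 0.05.

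The 4 Crem probe sets differed in sign. Probe set 1418322_at read 7.69 and 7.76 with fluoxetine and 7.27 and 7.54 without, and its difference was 0.33 (SE 0.11, 95% interval 0.06 to 0.60), or 1.25-fold, with a limma p of 0.0243 and an adjusted p of 0.455. Untreated replicate 1 was the low array: the difference was 0.19 without it (limma p 0.111) and 0.46 without untreated replicate 2. The limma p was 0.0670 without fluoxetine replicate 1 and 0.123 without fluoxetine replicate 2. Probe set 1449037_at had the same arrangement, reading 8.56 and 8.55 against 8.26 and 8.49, with a difference of 0.18 (SE 0.09, 95% interval -0.04 to 0.40) and a limma p of 0.0962; without untreated replicate 2 it was 0.29 (limma p 0.0146), and without untreated replicate 1 it was 0.07.

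The remaining Crem probe sets were dim, with negative differences that did not reach an unadjusted p below 0.05. Probe set 1430847_a_at, of a class designed to read several transcripts of a gene, read 3.45 and 3.67 with fluoxetine and 3.73 and 4.16 without. Both fluoxetine arrays were lower, by 0.05 at the nearest pair, and the difference was -0.38 (SE 0.20, 95% interval -0.86 to 0.10). It was -0.60 without untreated replicate 1 (limma p 0.0316) and -0.17 without untreated replicate 2. Probe set 1430598_at read 1.33 and 2.21 against 1.55 and 2.16, with a difference of -0.09 (SE 0.33), 0.35 without fluoxetine replicate 1 and 0.22 without untreated replicate 2; it lay in the lowest 4.0% of tested probe sets and its arrays differed more within a group than between groups. Within an array, the gap between the bright probe sets, 1418322_at minus 1449037_at, was -0.87 and -0.78 with fluoxetine and -0.99 and -0.95 without, a difference of gaps of 0.15. Of the 6 pairs of Crem probe sets, 3 had gaps that overlapped between the groups. The differences of gaps that did not overlap were 0.15, -0.56 and 0.71, the larger ones both taken against the dim 1430847_a_at. The pairs share probe sets and are not independent. No share of such pairs over all genes was counted to set beside them. The sources used here do not say which of them would read the ICER repressor.

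Maff, the small Maf protein, differed by less than its SE. Its probe set 1418936_at read 6.90 and 6.92 with fluoxetine and 6.79 and 6.88 without. The fluoxetine arrays were both higher, but by only 0.02 at the nearest pair. The difference was 0.07 (SE 0.10, 95% interval -0.18 to 0.32), 0.03 without untreated replicate 1 and 0.12 without untreated replicate 2.

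**Figure D3:**
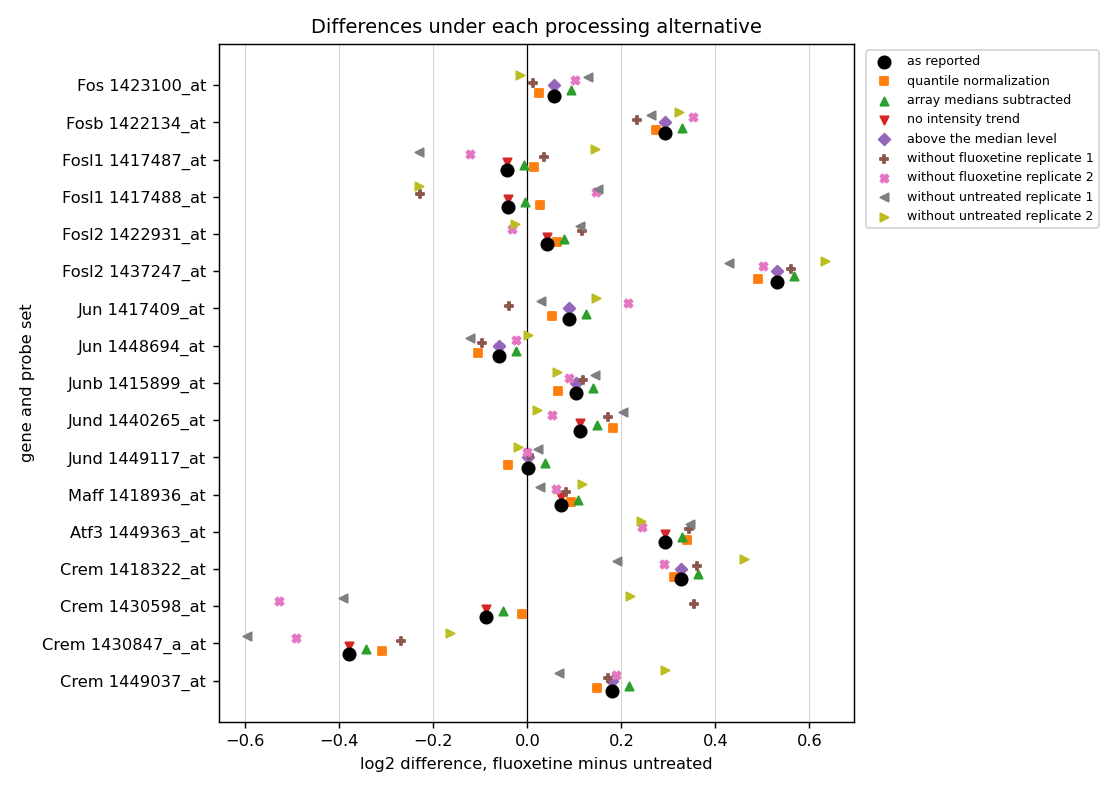
For each AP-1 probe set the log2 difference, fluoxetine minus untreated, is drawn as reported (black) and under each processing alternative (coloured symbols). Fosl2 1437247_at stays between 0.43 and 0.63 and Fosb between 0.23 and 0.35, while Crem 1430598_at runs from -0.53 to 0.35.

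The genes around AP-1 were described from lists chosen by role. Of the transcription factors and kinases upstream, 26 of 31 genes had a named probe set, 88 in all. At an unadjusted p below 0.05, 13 of the 88 (14.8%) were higher and 0 lower with fluoxetine (median difference 0.02), beside 6.4% and 3.04% of all probe sets and 10% and 1.68% of those above the median level. The 13 were 5 without fluoxetine replicate 1 and 9 without untreated replicate 2, and the 0 lower were 3 after another quantile normalization, 2 without untreated replicate 1 and 1 without untreated replicate 2. None passed the adjusted threshold. The smallest p values belonged to Mapk14, the p38 alpha stress kinase, with differences of 0.40 (SE 0.08) and 0.44 (SE 0.10) on 2 of its 6 probe sets, and to Mef2a, an activity-dependent factor of neurons, with 0.29 (SE 0.06) and 0.34 (SE 0.07) on 2 of its 6. Mapk14 1416704_at read 8.58 and 8.55 with fluoxetine and 8.12 and 8.20 without. The full span of Mapk14 probe sets was -0.11 to 0.44 and that of Mef2a -0.01 to 0.34, with 4 Mef2a probe sets higher at that p.

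Genes that limit early-gene products had 21 probe sets from 10 of 11 genes, of which 4 (19.0%) were higher and 0 lower (median difference 0.0029). Beside these stand the 6.4% and 3.04% of all probe sets and the 10% and 1.68% of those above the median level. In 7 of the 21 (33.3%) both fluoxetine arrays were above and in 5 (23.8%) both below, beside 19.9% and 20% of all probe sets. The 0 lower were 1 after another quantile normalization and without untreated replicate 2. The 4 higher were 0 without fluoxetine replicate 1 and 2 without fluoxetine replicate 2 or untreated replicate 2. The Egr corepressors Nab1 and Nab2 differed by 0.25 (SE 0.07; 0.19 on a second probe set, and -0.24 on the lowest of 3) and 0.27 (SE 0.08). The ubiquitin ligase gene Itch, which marks Jun proteins for breakdown, differed by 0.44 (SE 0.18) on 1 dim probe set and ran from -0.26 to 0.44 over 4.

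The other bZIP proteins lay near the share of all probe sets in the higher direction, and their lower share rests on 3 probe sets. Of 52 probe sets from 23 of 25 genes, 4 were higher (7.69%) and 3 lower (5.77%), beside 6.4% and 3.04% of all (median difference 0.02). The 4 were 1 without fluoxetine replicate 1 and 2 after another quantile normalization or without the intensity trend, and the 3 were 0 without fluoxetine replicate 1 and 1 without untreated replicate 1. Atf2, a Jun partner, differed by 0.46 (SE 0.09) on 1 of 5 probe sets, which ran from -0.06 to 0.46. The small Maf gene Mafg differed by 0.21 (SE 0.06; -0.07 on its other probe set), Atf4, of the integrated stress response, by 0.21 (SE 0.08; -0.20 on its lowest) and Batf3 by 0.29 (SE 0.12). In the other direction stood Creb5 at -0.56 (SE 0.15, and up to 0.16 on its other probe sets), Batf, an AP-1 inhibitor, at -0.35 (SE 0.11) and Nfe2l1 at -0.11 (SE 0.05). Of the 33 above the median level, fitted without the dimmer probe sets, 4 were higher and 0 lower at an unadjusted limma p below 0.05. In the main fit 10% and 1.68% of all probe sets above that level were higher and lower.

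Genes described as AP-1 targets in neurons or other cells had 42 probe sets from all 25 genes, of which 5 (11.9%) were higher and 2 (4.76%) lower (median difference 0.03), beside 6.4% and 3.04% of all probe sets and 10% and 1.68% of those above the median level. The 5 were 3 without untreated replicate 1, and the 2 were 0 after subtracting array medians, without the intensity trend, without fluoxetine replicate 1 and without untreated replicate 2. The cell cycle gene Ccnd1 differed by 0.38 (SE 0.07; -0.04 on the lowest of 3), the glutamate receptor subunit Gria2, a described target of the truncated Fosb protein, by 0.28 (SE 0.07; 0.02 on the lowest of 3) and the prohormone convertase Pcsk1 by 0.31 (SE 0.10). The neurotrophin Bdnf differed by 0.35 on 1 of its 2 probe sets and by 0.07 on the other. Nptx2, a synaptic pentraxin induced by activity, had probe sets at -0.21 (SE 0.08) and 0.33, and Odc1, of polyamine synthesis, differed by -0.25 (SE 0.09) on 1 of 3.

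**Figure D4:**
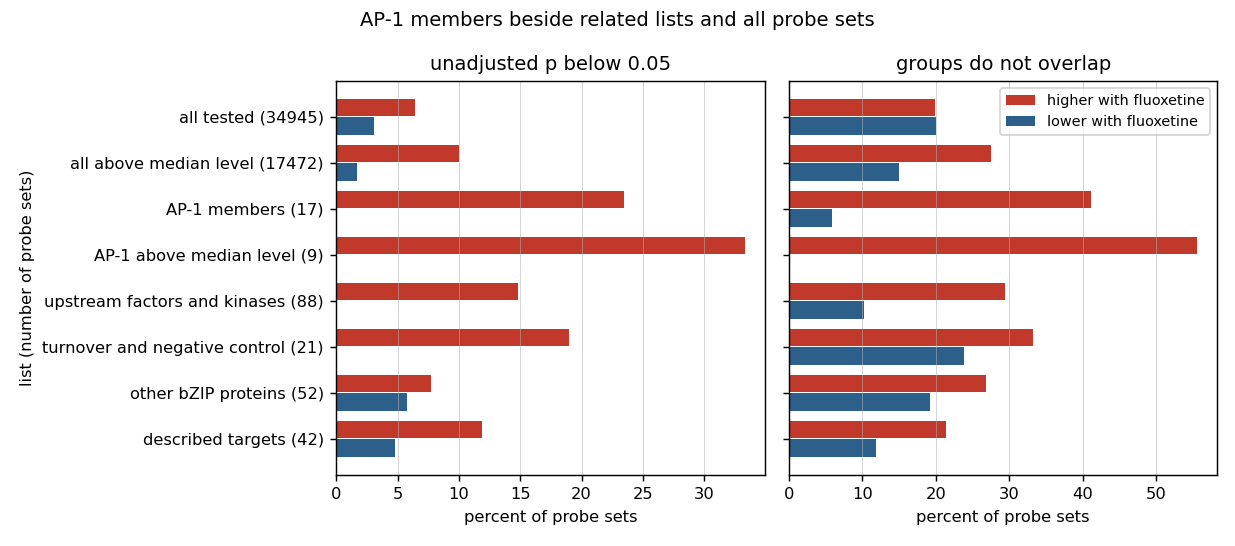
Bars give the percent of probe sets that were higher (red) or lower (blue) with fluoxetine, at an unadjusted p below 0.05 in the limma fit (left) and by groups that do not overlap (right); the number of probe sets is in parentheses. Of the 17 AP-1 probe sets 23.5% were higher at that p, beside 6.4% of all tested and 10% of those above the median level. Cell type marker lists are not drawn, and their higher shares at that p ran from 0% (striatal medium spiny neurons) to 42.3% (astrocytes).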

How the data were processed

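Total RNA from prelimbic punches was labelled with biotin and read on Affymetrix 3' arrays, per the labels' protocols. The deposited values are log2 intensities per probe set, for which RMA, affy and limma are named, per the submitters' processing notes, with no versions. Their range of -0.08 to 15.14 gave the log base. Whether another background correction was used, and the genome build, are not given in the sources used here. Of 45101 probe sets 64 were controls, 932 had several symbols, 9160 have no name here, and 34945 had 1 symbol and were fitted with no filter on low values. Of these 34741 matched RefSeq (GRCm38.p6) by Entrez number, and 0 member symbols needed updating.

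The groups were compared by a two-sided test in limma 3.58.1 (R 4.3.3) using lmFit and eBayes with its trend option, and p-values were adjusted by Benjamini-Hochberg across the 34945 probe sets at a threshold of 0.05. The fit had 5.11 prior and 2 residual degrees of freedom, which means that each variance rests mostly on other probe sets of like intensity. The p-values reflect only how these arrays vary. The number of arrays limits the precision. The code was tested on simulated data. Replicate numbers follow accession order and pair nothing. Alternatives were another quantile normalization, subtraction of array medians, no intensity trend, only probe sets above the median level, and leaving out each array.

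The members and gene lists were chosen with earlier results of these data known. Named beside the members are, per list and direction, up to 4 probe sets with the smallest unadjusted p below 0.05 whose groups do not overlap, and fixed markers.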

Additional observations from a re-analysis of the deposited data

How the results depend on the processing

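No AP-1 probe set reached an adjusted p below 0.05 in limma under any alternative (lowest 0.156), and 9 of the 17 kept their sign under each alternative that gave them a value; the restriction to probe sets above the median level gave one for 9 of the 17. After another quantile normalization the Fosl1 differences became 0.0151 and 0.0270 and that of the bright Jund probe set -0.0402. With each array left out in turn, the differences ran from -0.23 to 0.14 and from -0.23 to 0.15 for Fosl1 (1417487_at and 1417488_at), from -0.0166 to 0.13 for Fos, from -0.0332 to 0.12 for Fosl2 1422931_at, from -0.0391 to 0.21 for Jun 1417409_at, from -0.12 to 0.0018 for Jun 1448694_at, from -0.0203 to 0.0229 for Jund 1449117_at and from -0.53 to 0.35 for Crem 1430598_at. The cause was not tested. Without an array, at an unadjusted p below 0.05 there were 1 to 4 higher AP-1 probe sets and 0 to 1 lower (the lower was Crem 1430847_a_at, without untreated replicate 1), 9 to 11 had all fluoxetine arrays above and 2 to 3 all below, where fewer arrays make separation easier; above the median level 0 were all below, since that probe set is not among those kept. The median difference stayed between 0.06 and 0.12 under every alternative.

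Over all probe sets, the 1 past the adjusted threshold was 0 without the intensity trend and 0 to 1 with an array left out. At an unadjusted p below 0.05, the 2237 higher and the 1064 lower ones were 707 to 2326 and 337 to 1594 with an array left out. Lower ones were 705 after subtracting array medians and 301 above the median level. The higher share of these, 67.8%, was 79.6% after subtracting array medians, 59.4% after another quantile normalization, 85.3% above the median level, 50.3% without the intensity trend (1556 higher, 1535 lower), and 52.4% without untreated replicate 1 against 67.1% to 71.1% without each other array. No paired analysis was possible because the labels share no replicate number between the groups. An array left out leaves a lone array in its group, which is assumed to vary like the others.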
